A study of Mus musculus with 8 samples.

Results

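The peaks described here lie at 3 ligand genes of the tumour necrosis factor (TNF) superfamily, Tnf, Tnfsf9 and Tnfsf10. They come from CUT&Tag with an anti-IRF5 antibody in mouse macrophages grown from bone marrow, a method in which a tethered transposase cuts DNA next to the antibody's target. All cells were wild-type. The control libraries received PBS and the CpG libraries CpG, a Toll-like receptor ligand, with 2 libraries per condition. The strain, sex and age of the mice, the dose and time of CpG and whether libraries came from separate cultures are not given in the sources used here. The cells had been frozen before the assay. Judged by the names of the lists, each library was called against an IgG library of its own condition, so the background and the condition cannot be told apart. The control lists name the same IgG library, while the name given for CpG 2 differs slightly from that for CpG 1, so these may have had different backgrounds.

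A peak was taken for a gene when the authors' annotation named that gene as nearest or put the peak in that gene's Promoter class. This gave 15 of the 105945 peaks of the 4 libraries, with 5, 3, 3 and 4 in control 1, control 2, CpG 1 and CpG 2. The 2 lists that the authors made for whole conditions added 7 of 43714 peaks. The CpG 1 list stood apart in length, with 13553 peaks against 25851 to 37315 in the other libraries. As a check of the cell type, 12 macrophage markers were looked up, of which 11 were named in the lists and Itgam was not. A promoter-class peak was found at 10, 10, 8 and 10 of the 11, in the library order above, beside 24.3%, 28.9%, 10.5% and 22.4% of all named genes. Of 20 markers of T cells, B cells, neutrophils, dendritic cells and stroma, 13 were named. Of these, 1, 2, 1 and 1 had one, and the marker found in all 4 libraries was Xcr1, a chemokine receptor gene of dendritic cells. A peak shows antibody-directed cutting near a gene and not the expression of that gene.

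TNF superfamily ligands are membrane-bound or shed trimers that bind receptors on neighbouring cells and act through NF-kB, stress kinases or caspases. Macrophages release TNF, the product of Tnf, soon after Toll-like receptors are engaged. IRF5 is a transcription factor downstream of the adaptor MyD88 and is known as a regulator of inflammatory cytokine genes. Tnfsf9 encodes the 4-1BB ligand, which costimulates T cells. Tnfsf10 encodes TRAIL, a death receptor ligand whose gene is known to respond to interferon.

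The promoter sequences of Tnf and Tnfsf10 are shown because promoter-class summits lay inside or just beyond these stretches. The sequences are those of RefSeq on GRCm38.p6 and cover the 250 bases before each gene's start, printed 5′ to 3′ on the gene's strand. RefSeq's table held 2 of the 3 genes, and Tnfsf9 is the other. Their positions on that build are chr17:35202008-35202257 (minus strand) for Tnf and chr3:27316827-27317076 (plus strand) for Tnfsf10. Positions of peaks and genes elsewhere in the text are those of the peak lists, for which the sources used here name no build. Capitals mark matches to 6 motifs that were searched on both strands.
Tnf: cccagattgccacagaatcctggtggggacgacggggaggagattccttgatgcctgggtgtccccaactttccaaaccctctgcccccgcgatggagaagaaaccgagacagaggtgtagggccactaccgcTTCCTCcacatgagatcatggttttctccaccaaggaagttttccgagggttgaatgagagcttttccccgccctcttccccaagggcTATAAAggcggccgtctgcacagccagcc
Tnfsf10: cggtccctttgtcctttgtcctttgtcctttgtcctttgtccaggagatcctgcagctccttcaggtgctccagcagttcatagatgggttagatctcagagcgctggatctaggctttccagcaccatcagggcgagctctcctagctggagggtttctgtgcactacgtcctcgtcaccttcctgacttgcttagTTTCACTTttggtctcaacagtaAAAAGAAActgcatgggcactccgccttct

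The capitals in the Tnf stretch are a PU.1 core (GAGGAA, on the opposite strand at -117 to -112 from the start) and a TATA box (TATAAA, at -29 to -24). PU.1 is a lineage factor of macrophages, and its core was found in 23.3% of all 32851 RefSeq promoter stretches of this length. The TATA letters were found in 12.4%. The capitals in the Tnfsf10 stretch are a pair of IRF core motifs (AANNGAAA), on the opposite strand at -53 to -46 and on the gene's strand at -30 to -23. That core was found in 21.3% of all stretches and not in that of Tnf. Neither stretch held the longer interferon-stimulated response element (GAAANNGAAA, in 2.98% of all), the AP-1 motif (TGANTCA, in 6.75%) or the consensus of NF-kB (in 7.25%). The longer element contains the IRF core, and the matches shown did not overlap one another. A match describes letters and not a bound site.

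Tnf (chromosome 17, 35418356 to 35420983, minus strand, ENSMUSG00000024401) had a promoter-class peak in all 4 libraries, which 5.56% of the 20404 named genes had. Its summit lay at -135 and -194 from the gene's start in the control libraries and at -133 and -255 in the CpG libraries. The first 3 therefore fell within the stretch shown above and that of CpG 2 lay just beyond it, as far as the gene starts of the lists and of RefSeq are the same, which was not tested. The authors' lists for the control and CpG conditions placed it at -135 and -169.

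The libraries differed in the number and length of their Tnf peaks. In control 1 a peak of 2648 bp (35419273 to 35421920) ran from -937 to 1710 relative to the start, and a second one of 208 bp followed in the last exon and 3′ untranslated region. In control 2 a single peak of 2979 bp (35418904 to 35421882) covered the promoter and most of the gene. These long peaks were at the 99.6 and 99.5 percentile of peak length in their lists. In CpG 1 the promoter peak was 260 bp long (35421039 to 35421298), and separate peaks of 154 bp in an intron and 454 bp in an exon lay inside the gene. In CpG 2 the promoter peak was 942 bp long (35420805 to 35421746), and an exon peak of 1456 bp had its summit 1815 bases after the start. A peak of 253 bp lay in an exon, and one of 1006 bp lay across the gene's end with its summit beyond that end. The numbers of Tnf peaks were thus 2 and 1 in the control libraries and 3 and 4 in the CpG libraries, with no overlap between the conditions. Of all named genes, 2.05% had more peaks in both CpG libraries than in either control library. The means were 1.5 ± 0.707 and 3.5 ± 0.707 (SD, n = 2 each, two-sided exact permutation test, p = 0.333). That p is the smallest which the 6 assignments of 4 libraries to 2 conditions allow, so no difference in peak number could have reached significance. The test concerns only these 4 libraries, and part of their differences may be technical. Among peaks with a −log10 p of at least 10 the numbers were 2, 1, 0 and 3, and the means of the conditions did not differ.

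**Figure D1:**
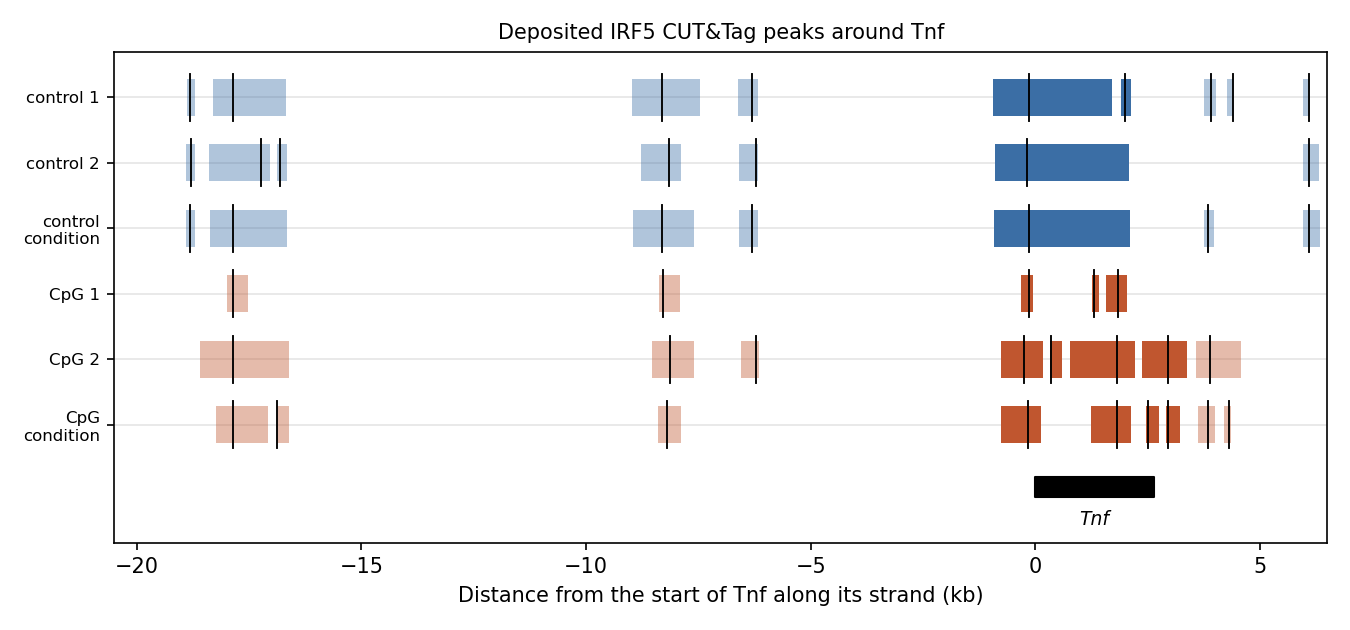
Peaks of the 4 libraries and of the authors' 2 condition lists around Tnf, by distance from the gene's start along its strand in kb. Boxes are peaks, black ticks their summits, full colour marks peaks taken for Tnf, paler colour other peaks, and the black bar is the gene. The control lists have a long peak over promoter and gene, and the CpG lists have separate promoter and gene-body peaks.

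Peaks covered 1919 and 2080 of the 2628 bp of the Tnf gene in control 1 and control 2, or 73.0% and 79.1%. They covered 23.1% in CpG 1 and 81.8% in CpG 2, so the covered share of the gene overlapped between the conditions. Of 20875 gene identifiers with a name, 1.01%, 1.32%, 0.503% and 0.891% had as large a share of the gene covered, in the library order above. Tnf is a short gene, and such shares depend on gene length. In the 2 kb before the start, peaks covered 46.9%, 45.0%, 13.0% and 38.2%, and 2.92%, 5.47%, 3.20% and 3.81% of genes had as much. CpG 1, the shortest list, was the lowest in both measures.

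Each CpG library had 2 peaks inside the gene, with summits at 1310 and 1845 after the start in CpG 1 and at 347 and 1815 in CpG 2. The summits at 1845 and 1815 lay close together, and those at 1310 and 347 did not. The authors' CpG condition list had a summit at 1815, with a fold enrichment of 8.63. Control 1 had its nearest separate summit at 1997, and control 2 had none, since its long peak has only the promoter summit. Fold enrichment is the authors' ratio of a peak's summit pileup to its local background. At the summits at 1845 in CpG 1 and 1815 in CpG 2 it was higher than at the promoter. At the other summits inside the gene it was higher than at the promoter in CpG 1 and lower in CpG 2. In CpG 1 it was 4.50 at 1310, 4.40 at 1845 and 2.5 at the promoter. In CpG 2 it was 3.40 at 347, 14.4 at 1815 and 8.96 at the promoter. The promoter peak had the highest summit pileup in both libraries, with 44 against 17 and 15 in CpG 1 and 53 against 17 and 39 in CpG 2.

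A high local background went with the Tnf promoter in every list. The background implied by each pileup and fold enrichment was 5.92 and 7.74 in the control libraries and 17.0 and 5.03 in the CpG libraries, in units of pileup. List medians were 1.69, 1.72, 2.00 and 1.84. The Tnf values were at the 92.0, 95.9, 98.7 and 90.6 percentile of their lists. Summit pileups were 81, 41, 44 and 53, which lay at the 98.9, 88.2, 96.5 and 93.7 percentile. The fold enrichments of 11.8, 4.81, 2.5 and 8.96 lay at the 95.4, 22.0, 1.14 and 80.4 percentile. The promoter peak of CpG 1 thus stood among the tallest of its list by pileup and among the lowest by fold enrichment. Pileups are not normalized between libraries and the lists differ in length, so neither values nor percentiles show a change from control to CpG. The CpG condition list gave the same combination, with a pileup of 57.1, a background of 16.0 and a fold enrichment of 3.42. The control condition list gave 71.5, 7.0 and 9.06.

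**Figure D2:**
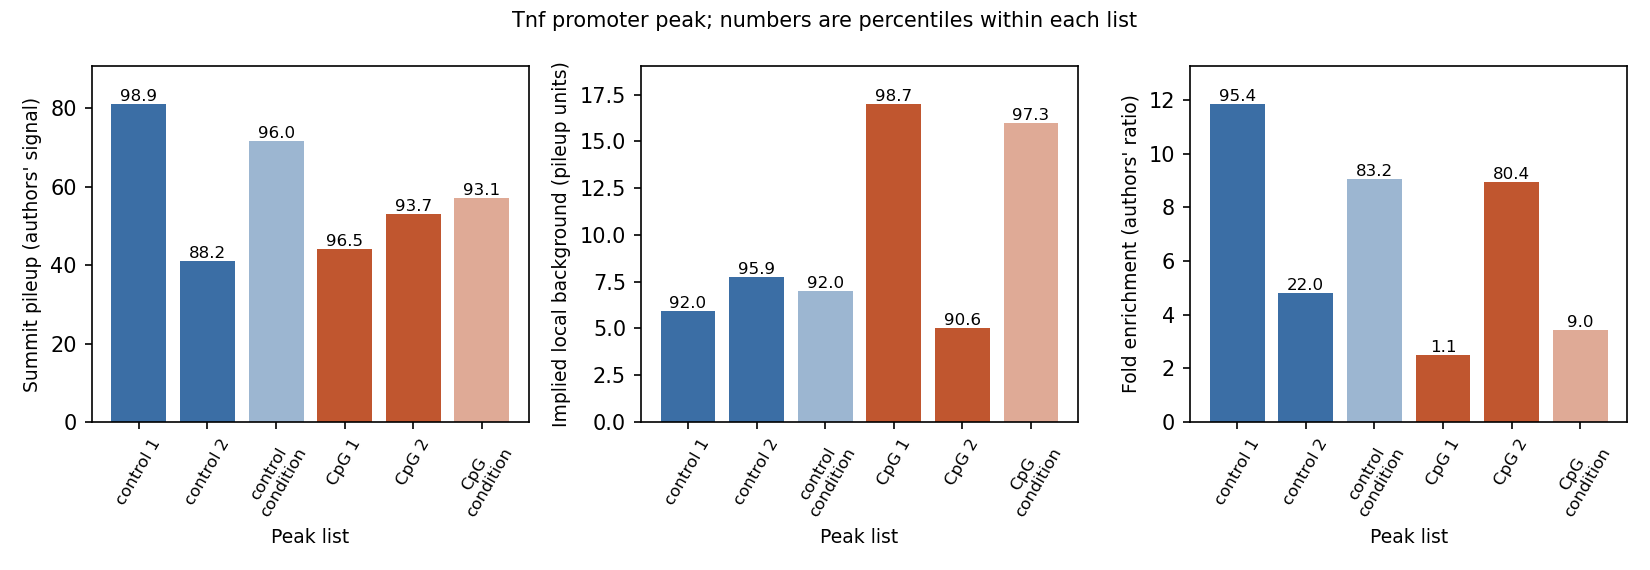
Summit pileup, implied local background and fold enrichment of the Tnf promoter peak in the 4 libraries and, paler, in the authors' 2 condition lists. Bars are single values without error, and the numbers above them are percentiles among all peaks of that list. The CpG 1 peak has a background of 17.0 (percentile 98.7) and a fold enrichment of 2.5 (percentile 1.14).

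The Tnf peaks sat in a stretch with other peaks, some at genes of the lymphotoxins, the nearest relatives of TNF. Within 20 kb of the gene there were 14, 12, 5 and 13 peaks in the 4 libraries, which merged into 18 regions. Of these, 3 were called in all 4 libraries and 4 in both control libraries alone, beside 10.1% and 8.7% of all merged regions. The 3 shared regions were the Tnf region itself (35418765 to 35421920), one from -8978 to -7467 (35428450 to 35429961), and one from -18587 to -16610 (35437593 to 35439570). The nearest gene of the second was Lta, which encodes lymphotoxin alpha and starts at -3344 from the start of Tnf, but no library had a promoter-class peak at Lta. The third lay at the promoter of Gm16181, the only one of 14 neighbouring genes within 50 kb with a promoter-class peak in all 4 libraries. Ltb, the gene of lymphotoxin beta, had promoter-class peaks in control 2 and CpG 2.

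The peak at Gm16181 had within-list percentiles closer to those of the Tnf promoter peak than any other gene had. The measure was the largest difference in percentile by fold enrichment over the 4 libraries, among 1134 other genes with a promoter-class peak in all of them. It was 3.14 percentile points for Gm16181 (98.6, 22.7, 2.28 and 82.2), 12.3 for Ap4e1 and 13.9 for H4c1. The Tnf promoter and the Gm16181 peak lie in the same stretch, while libraries and IgG backgrounds were the same for all 1134 genes. The region between them had percentiles of 94.6, 88.5, 2.5 and 86.4, and so stood apart from both in control 2. In CpG 1 the implied background was 17.0, 9.99 and 7.99 at Tnf, the middle region and Gm16181, between the 94.1 and 98.7 percentile. Its part in the low fold enrichments of that library was not tested.

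**Figure D3:**
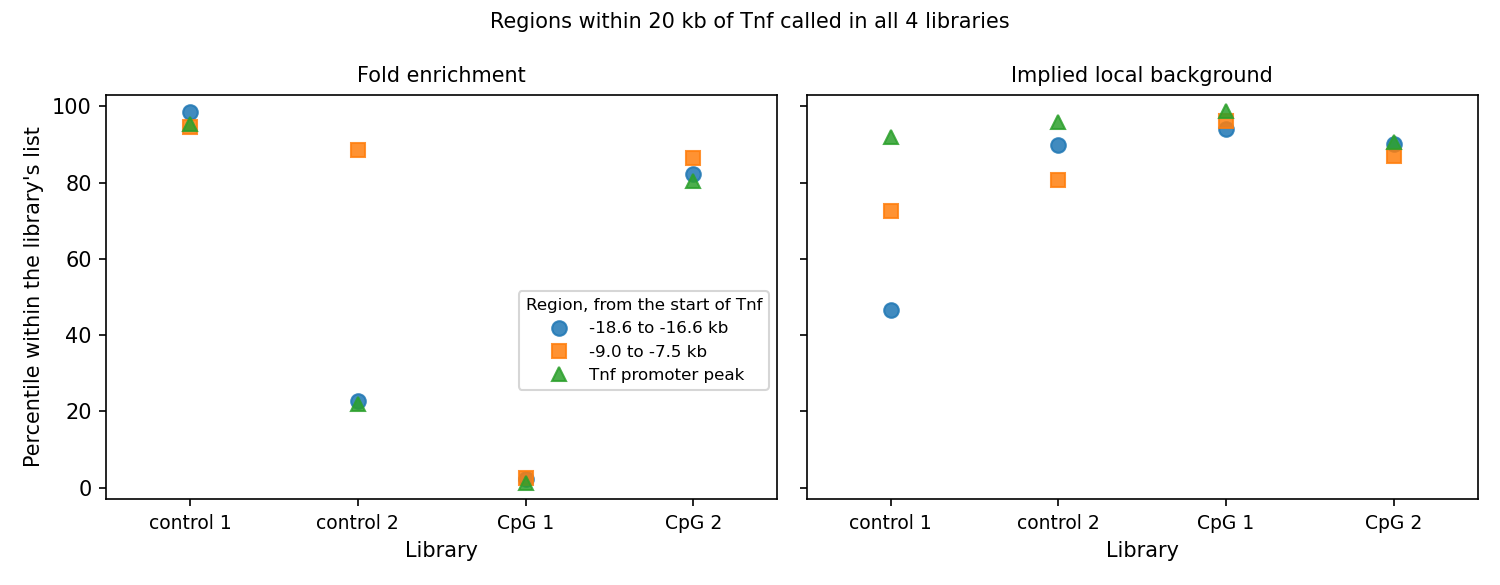
Percentile within each library's list by fold enrichment (left) and by implied local background (right) for the Tnf promoter peak and the 2 other regions within 20 kb of Tnf called in all 4 libraries. Points are single peaks, the strongest by fold enrichment for the 2 upstream regions. In CpG 1 all 3 lie between the 1.14 and 2.5 percentile by fold enrichment and between the 94.1 and 98.7 percentile by background.

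Tnfsf9 (chromosome 17, 57412324 to 57414757, plus strand, ENSMUSG00000035678) had peaks in the control libraries only, 2 in each, and 0 in each CpG library (2 ± 0 against 0 ± 0, SD, n = 2 each, with p = 0.333 in a two-sided exact permutation test). Of all named genes, 18.6% had more peaks in both control libraries than in either CpG library. Both libraries of the control had a promoter-class peak and neither CpG library did, a pattern of 4.42% of named genes. The promoter peaks of the control libraries did not overlap. In control 1 it spanned 57412097 to 57413172, across the start, with its summit at -93, a pileup of 39 and a fold enrichment of 9.12. In control 2 it spanned 57410498 to 57410679, with its summit at -1736, a pileup of 17 and a fold enrichment of 7.46. Control 2 did have a peak of 155 bp inside the region of control 1 (57412784 to 57412938, fold enrichment 5.21), which the annotation put in an intron and gave to the overlapping gene Gm11110.

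The other Tnfsf9 region had summits at -6894 in control 1 and -6661 in control 2, in an intron of Gm11110. Control 1 had a peak there with a fold enrichment of 3.67 (57405426 to 57405659), at the 5.73 percentile of its list. Control 2 had one of 11.4 (57405455 to 57405812), at the 88.6 percentile. The authors' control condition list held this region with 8.14 and the region at the start with 5.15, and their CpG condition list held neither. The only CpG peaks within 20 kb lay in a region from 7434 to 8361 after the start, nearest to Gm49892, where all 4 libraries had a peak. Among the 900 other genes with the same pattern of promoter-class peaks, those closest to Tnfsf9 in percentile were Gm37669, 1110035H17Rik and Rps27l, within 0.549 to 1.11 percentile points over 2 libraries.

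Tnfsf10 (chromosome 3, 27371176 to 27396576, plus strand, ENSMUSG00000039304) had a single peak in control 1 and none in control 2, CpG 1 and CpG 2 (0.5 ± 0.707 against 0 ± 0, SD, n = 2 each, with p = 1 in a two-sided exact permutation test). It was 219 bp long (27370897 to 27371115), with its summit at -151, a pileup of 12 and a fold enrichment of 6.43, at the 63.9 percentile. The right edge of the peak lay at -61, so the IRF core motifs shown above fell outside it, if the gene starts of the lists and of RefSeq are the same. Neither condition list had a peak at Tnfsf10, and no list had another peak within 20 kb. Among the 845 other genes with a promoter-class peak in control 1 alone, the closest in percentile were Mir7078, Mir1957a and Zbtb2, within 0.169 percentile points. Among so many candidates over so few libraries, genes this close are to be found anyway, here and for Tnfsf9.

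**Figure D4:**
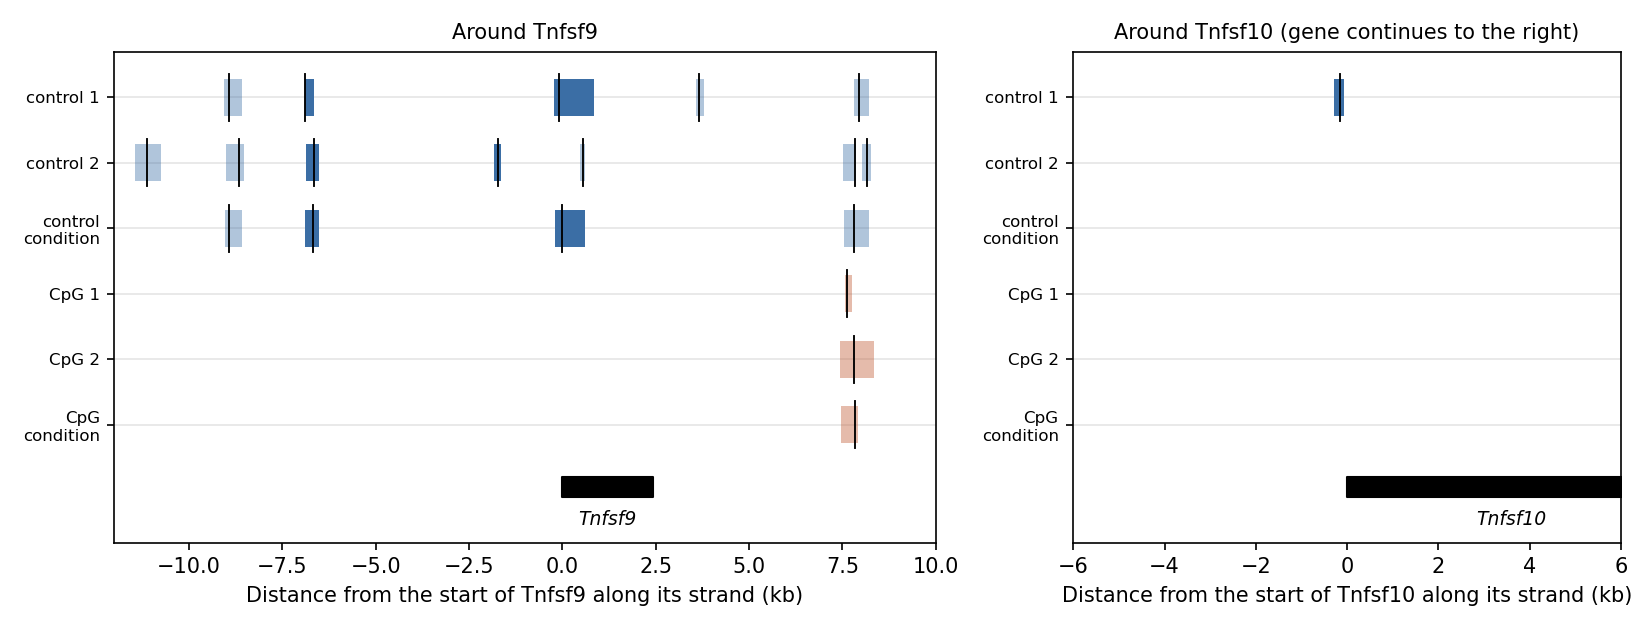
Peaks around Tnfsf9 (left) and Tnfsf10 (right) in the 4 libraries and the authors' 2 condition lists, by distance from each gene's start along its strand in kb. Full colour marks peaks taken for the gene, paler colour other peaks, ticks are summits and the black bar is the gene. The CpG lists have no peak near Tnfsf9 except in the region from 7434 to 8361 after its start, and only control 1 has a peak at Tnfsf10.

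Merged over the 4 libraries where they overlapped by at least 1 bp, the peaks of the 3 genes formed 6 regions. Of these 1 was called in all 4 libraries, at Tnf, against 10.1% of all 55621 merged regions. In both control libraries and no CpG library there were 2, both at Tnfsf9, against 8.7% of all regions. At the start of Tnfsf9 the region counts for control 2 only through the peak given to Gm11110, and by peaks taken for Tnfsf9 alone 1 such region was left. In both CpG libraries and no control library there were 0, against 1.15%. The other 3 were called in a single library each. With the 13553 strongest peaks of each library by p-value, the length of the shortest list, the Tnf region was still called in all 4, and no region was called in both control libraries alone. Control 1 and control 2 then kept 1 Tnfsf9 peak each, with summits at -93 and -6661, and control 1 lost its Tnfsf10 peak. Among peaks with a −log10 p of at least 10, no region was called in all 4, since the Tnf peaks of CpG 1 had values of 7.65, 8.45 and 7.90.

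Of the other TNF superfamily ligands, 11 of 15 were named in the lists, and 2, 5, 1 and 4 of the 11 had a promoter-class peak in control 1, control 2, CpG 1 and CpG 2. All named genes had one at 24.3%, 28.9%, 10.5% and 22.4% in the same order. None of the 11 had one in all 4 libraries, where 5.56% of named genes had one, so few or none would be found among so few genes. Tnfsf12, which encodes TWEAK, had one in both control libraries (fold enrichment 5.37 and 7.13) and no overlapping CpG peak. A promoter-class peak in both control libraries and no CpG library was a pattern of 4.42% of named genes. Tnfsf13b, which encodes the B cell survival factor BAFF, had one in both CpG libraries (2.86 and 4.40), and control 2 had an overlapping peak of another class. Each of these patterns was seen in 1 of the 11 genes, and the share of all named genes with the CpG pattern was not computed. Ltb and Tnfsf14, the gene of LIGHT, had one in control 2 and CpG 2, but the Tnfsf14 peaks of these libraries did not overlap. Tnfsf15 had one in control 1 and CpG 2, and Tnfsf13, the gene of APRIL, and Tnfsf18, the gene of the GITR ligand, had one in control 2 alone. Lta, Tnfsf4, Cd70 and Tnfsf8 had none, though peaks had them as their nearest gene.

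**Figure D5:**
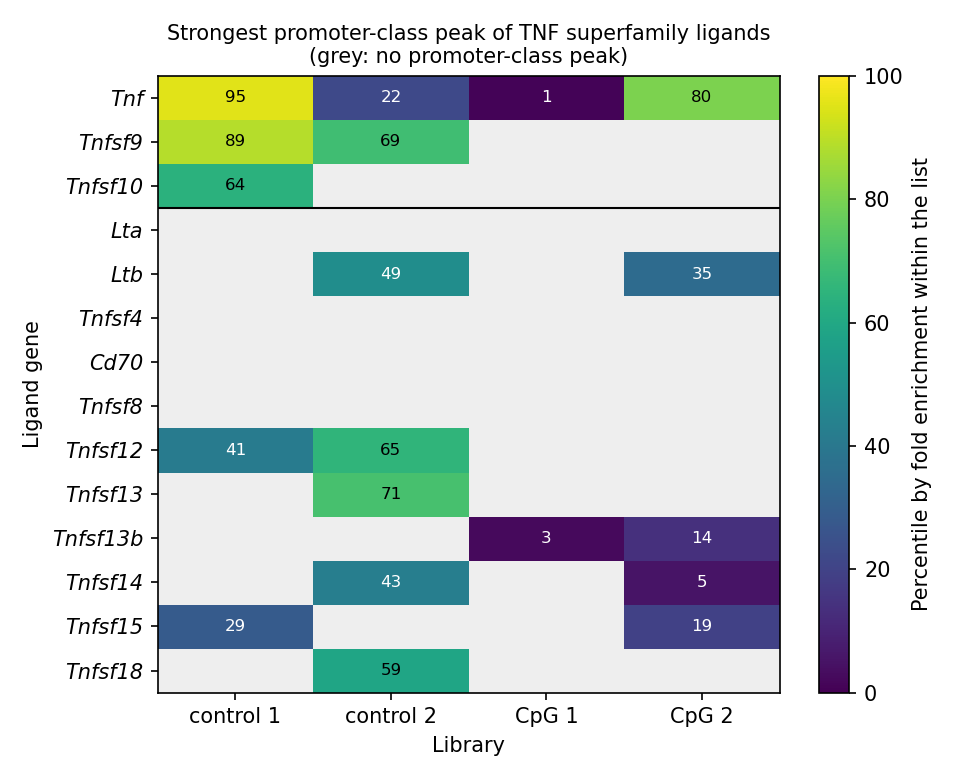
Percentile, by fold enrichment within each library's list, of the strongest promoter-class peak of the 3 ligand genes described (above the line) and of the 11 other ligand genes named in the lists. Columns are libraries and grey cells have no promoter-class peak. Tnf is the only gene of the plot filled in all 4 libraries, a pattern of 5.56% of named genes.

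Among 25 receptor and signalling genes of these ligands, 20 were named, and 7, 12, 3 and 8 had a promoter-class peak in the 4 libraries, beside the 24.3%, 28.9%, 10.5% and 22.4% of all named genes. None had one in all 4, where 5.56% of named genes had one, and 6 had none. Of the receptors of TNF, Tnfrsf1a had one in both control libraries (6.89 and 4.78) and neither CpG library, a pattern of 4.42% of named genes. In CpG 1 and CpG 2, 1 and 4 peaks outside its Promoter class had Tnfrsf1a as their nearest gene. Tnfrsf1b had one in control 2 and CpG 2 (3.61 and 5.12). Tnfrsf9, the receptor gene for the 4-1BB ligand, had none, though 1 peak of control 2 had it as nearest gene. Adam17, the gene of the TNF sheddase, had none, though 2, 2, 0 and 2 peaks had it as nearest gene, in the library order above. Rhbdf2, needed for the shedding of TNF, had one in both control libraries (5.52 and 8.81) and neither CpG library, again a pattern of 4.42% of named genes. For Rhbdf2, CpG 1 and CpG 2 had 4 and 5 nearest-gene peaks outside its Promoter class. The adaptor gene Traf2, the LUBAC subunit gene Sharpin and the death adaptor gene Fadd had one in every library but CpG 1. Traf1 and Birc2, the latter encoding a ubiquitin ligase of the receptor complex, had one in every library but control 1. The shares of all named genes with either pattern were not computed, and the CpG 1 list was the shortest. Tnfaip3, which encodes the NF-kB inhibitor A20, had one in control 2 and CpG 1 (5.25 and 6.5).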

How the data were processed

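Anti-IRF5 CUT&Tag peaks were analysed for 4 of the 8 samples of the series, and the 4 IgG samples were not analysed here as libraries. The submitters' processing notes name fastp (0.20.0) for reads, ChIPseeker among the tools, MACS2 (2.1.0) and the aligner BWA (0.7.12), with no build. The deposited lists give a summit pileup (signal), a fold enrichment (ratio), and the −log10 of a p-value and q-value, the last pair read from column order since their headers are damaged. Pileups were whole numbers in 100% of peaks of the 4 library lists, and the authors' condition lists hold scaled ones. Depth is unknown, and no read counts over common regions were used.

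Local background was computed as (pileup + 1) / fold enrichment − 1. So computed, 18.9%, 15.5%, 25.4% and 13.4% of peaks in the 4 libraries shared the lowest background of their list within 0.002. Peaks on 21 chromosomes were used, continuation lines of long annotation cells were skipped, and a name is given in the lists only to the nearest gene of a peak, so a gene near no peak is not named. Percentiles are within a list. Peaks were merged at an overlap of 1 bp with Python 3.11.15 and pandas 2.3.3, and merging was tested on simulated data. No simulated region held several peaks of the same library, as the Tnf region does, so chains of that kind were not tested. Numbers of peaks were compared by an exact permutation test.

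Named were the 3 ligands, other ligands with a promoter-class peak, the 3 genes closest to each in percentile, genes within 50 kb (given as counts and examples), and, of the receptor list, genes with a peak in all 4 libraries. As there were none, receptor genes were named after their values were seen, as were Lta, Tnfsf4, Cd70, Tnfsf8, Itgam and Xcr1. The genes and lists were chosen with earlier results of these data known. Alternatives were a stricter p-value, lists of equal length, an overlap of 0.5 of the shorter peak, nearest genes only, and leaving out each library.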

Additional observations from a re-analysis of the deposited data

How the results depend on the processing

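The Tnf region was called in all 4 libraries with equal list lengths, with an overlap of 0.5 of the shorter peak, by nearest gene only and in the 3 libraries left after leaving out any 1 (lowest and highest number of such regions, 1 and 1), but 0 such regions remained at a −log10 p of at least 10. The 2 control-only regions became 0 at that threshold, 0 with equal list lengths and 1 by nearest gene only, and ranged from 2 to 3 when a library was left out. Regions called in the CpG libraries alone ranged from 0 to 1, the 1 being the CpG 2 peak across the end of Tnf when CpG 1 was left out. The difference in Tnf peaks per library, CpG minus control, was 2 as reported and 0 at a −log10 p of at least 10, and ranged from 1.5 to 2.5 when a library was left out. That of Tnfsf9 was -2 in each such run, but -1 with equal list lengths. At a −log10 p of at least 10, and by nearest gene only, the Tnfsf9 difference was -1.5. That of Tnfsf10 was 0 with equal list lengths. It ranged from -1 to 0 when a library was left out, the 0 without control 1. No paired analysis was possible because the lists hold no counts to fit and nothing says that libraries with the same number belong together. Depth is unknown, so a missing peak means not called and not absent.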
